A study of Mus musculus with 4 samples.

Results

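Genes of Schwann cells and of peripheral myelin were followed in RNA of whole mammary fat pad (MFP). The 8 genes, Mbp, Pmp22, Prx, Mag, Sox10, S100b, Cdh19 and Ngfr, were listed by name as markers of this cell type. They were chosen with earlier results of these data known. Each was found on a single row of the 55487 genes counted. All 8 passed the filter on low counts that left 22485 genes for testing. MFP of aged mice (14 months, 2 samples) was compared with that of young mice (8 weeks, 2 samples), all of the strain given as c57b/6j in the labels, which state no sex for the samples. The labels name no transgene, agent or tumour for either age, and call the 2 samples of an age biological replicates without giving the number of animals in each. The whole tissue was chopped and lysed with beads, so that every library holds RNA of all cell types of the pad, and fewer cells of a type cannot be told apart from less RNA per cell.

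Schwann cells ensheathe the axons of peripheral nerves. Myelinating Schwann cells wrap a single large axon in compact membrane held together by a small set of proteins, and non-myelinating Schwann cells bundle thin axons, such as the sympathetic and sensory fibres that reach fat. Both arise from neural crest under the transcription factor SOX10, and adult nerve keeps both states side by side. Several of these genes are not restricted to nerve: Sox10 is also known from mammary epithelium and melanocytes, S100b from adipocytes, Pmp22 from fibroblasts, Ngfr from stromal and myoepithelial cells, and Mbp has golli transcripts in lymphocytes.

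Counts per library ran from 68803304 to 98402403, and 3 counts corresponded to at most 0.0407 CPM (counts put on a common scale by the library total after TMM scaling, which evens out differences in composition). Young replicate 1 stood apart from the other libraries on the first principal component over all genes tested, with a score of 122 against scores from -63.2 to -10.0. In this library all 6 lymphocyte and lymph node markers were at their highest, at a summed 1250 CPM against 34.8 to 145 CPM elsewhere, and all 9 mammary epithelial markers were at their lowest, at a summed 698 CPM against 1259 to 1520 CPM elsewhere. The 8 skeletal muscle markers, with Acta1 the highest per length, were at a summed 37453 and 60062 CPM in aged MFP and 9720 and 13575 CPM in young MFP. Adipoq, the adipocyte marker with the highest level per length, was at 430 to 1141 CPM, so that RNA of fat was present in every library as the tissue label states.

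The label of the gene group was checked against other cell types. Prx, which is known from peripheral and not from central myelin, was at 24.4 to 36.6 CPM. Whether this RNA came from Schwann cells alone was not tested. None of the 6 markers of oligodendrocytes, the myelin-forming cells of the central nervous system, passed the filter, and their summed level was between 0.0611 and 0.191 CPM, with Opalin at 0 in all libraries and Mog, the highest per length, at 1 to 11 counts. Of 10 neuron and axon markers 4 passed, with a summed level of 2.30 to 10.1 CPM over all 10. Stmn2 was the highest of these per length. Of 5 melanocyte markers 3 passed, with a summed level of 1.83 to 2.64 CPM. Mlana, the highest of these per length, had 54 and 36 counts in aged and 1 and 6 counts in young MFP, and Dct and Pmel had 32 to 155 counts. Tyr and Tyrp1, enzymes of pigment synthesis, had at most 3 counts in any library. RNA of 3 of the 5 melanocyte markers was therefore measurable at a low level. Pmel shares 105 exonic bases with Dgka and 34 with Cdk2 on the other strand. Whether the RNA of these markers came from melanocytes was not tested. RNA that defines central myelin was at or near 0.

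The genes of this group were spread over a wide range of levels. Per kilobase of exon, which allows levels to be compared between genes, Pmp22 was the highest with a mean of 63.0 CPM per kilobase over the 4 libraries. It was followed by Sox10 at 16.04, Mbp at 12.0, Prx at 5.39, Ngfr at 4.15, Cdh19 at 2.15, S100b at 1.66 and Mag at 0.345 CPM per kilobase. The ranges over the libraries did not touch between Pmp22 and Sox10, between Mbp and Prx, or between S100b and Mag. The other neighbours in this order overlapped, and Sox10 was above Mbp in 3 of 4 libraries, Prx above Ngfr in 3 of 4, Ngfr above Cdh19 in 4 of 4 and Cdh19 above S100b in 3 of 4. Among all genes tested with a known length, Pmp22 stood between the percentiles 97.1 and 98.5 in the 4 libraries, and Mag between 14.1 and 22.8. Exon lengths are those of all transcripts of a gene merged, so genes with many alternative transcripts, such as Mbp, may read lower on this scale than genes with few.

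**Figure D1:**
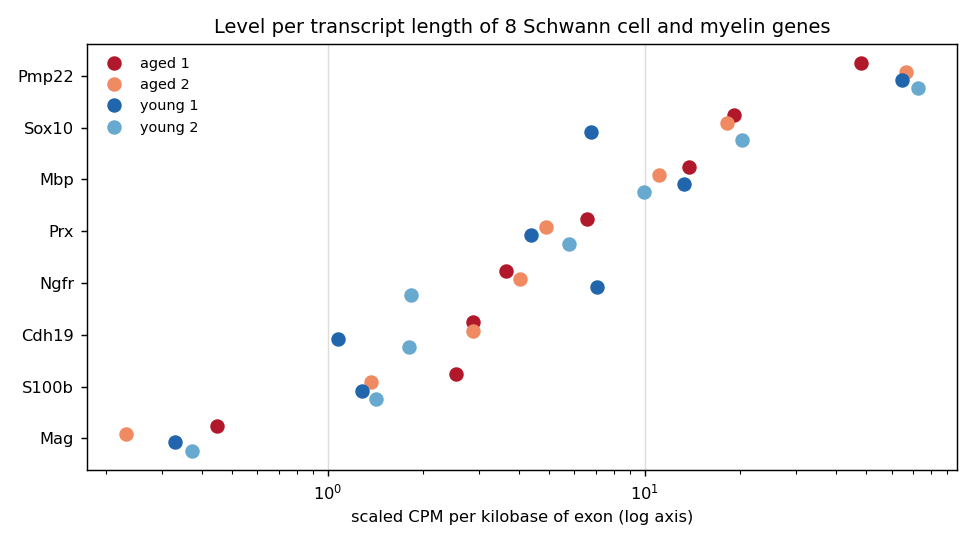
Level per length of the 8 Schwann cell and myelin genes, in scaled CPM per kilobase of exon on a log axis, with 1 point per library (aged in red, young in blue, points offset vertically within a gene). Pmp22 lies above all other genes in every library, Mag lies below them, and Sox10 and Ngfr have the widest spread.

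In edgeR's quasi-likelihood test of aged against young MFP, none of the 8 genes was called at a Benjamini-Hochberg adjusted p under 0.05, where 0% of all genes tested were called. DESeq2 called 0 of the 8 genes, beside 3.86% of the genes it tested. At an unadjusted p under 0.05 in edgeR's test there was 1 of 8, Cdh19, beside 10.5% of all genes. The log2 fold change (aged over young MFP, with its standard error, SE, from edgeR) was positive for 5 genes (Mbp, Prx, Sox10, S100b and Cdh19) and negative for 3 (Pmp22, Mag and Ngfr), with a median of 0.13. Over all genes tested the median was -0.04 and 47.0% were positive. Only Cdh19 had both aged libraries above both young libraries, which held for 23.3% of all genes, and none of the 8 had both aged libraries below, which held for 22.8%. Without young replicate 1, which stood apart, 4 genes were higher and 4 lower, with a median of 0.15. Without aged replicate 1 the count turned to 3 higher and 5 lower with a median of -0.0641, and with scaling by totals alone it was also 3 and 5 with a median of -0.0389. For a single gene, the smallest two-sided p that exact permutation of 2 and 2 libraries allows is 0.333, so the p-values rest on the spread that edgeR estimates across genes.

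**Figure D2:**
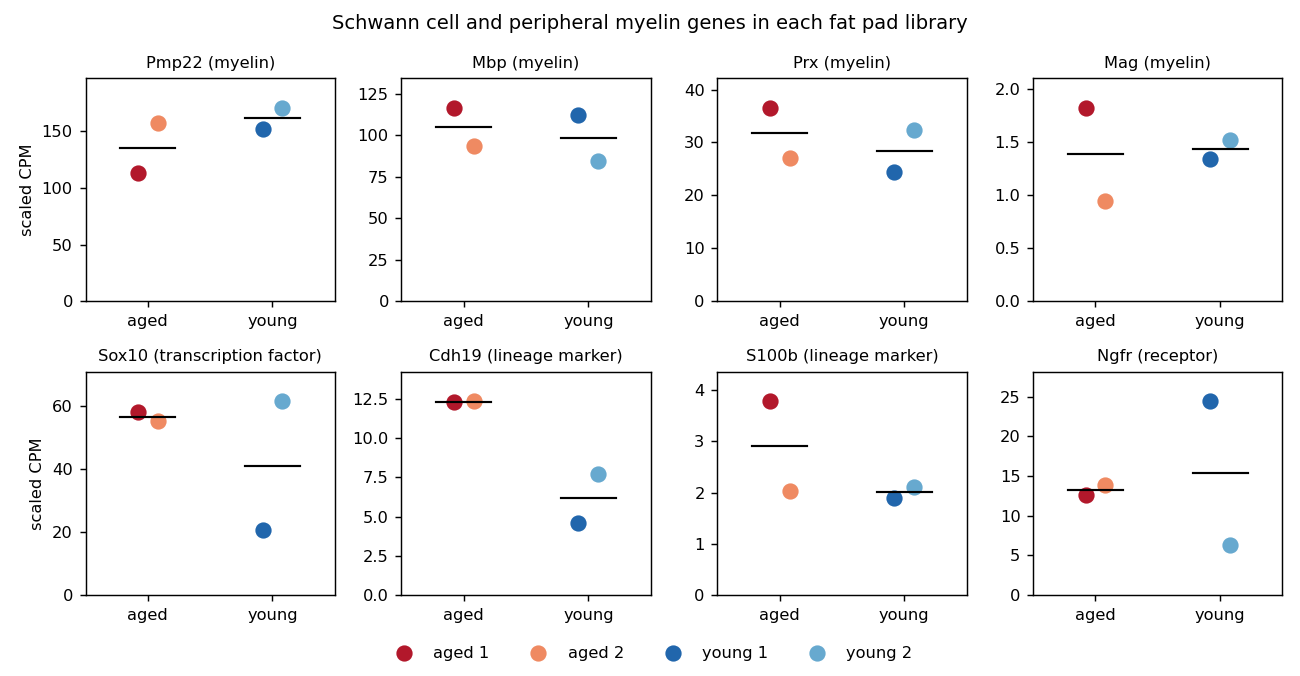
Scaled CPM of each of the 8 genes in the 2 aged (red) and 2 young (blue) MFP libraries, with bars at the mean of each age and every axis starting at 0. The ages are apart for Cdh19, with 12.3 and 12.3 CPM in aged and 4.61 and 7.70 CPM in young MFP, while they overlap for the other 7 genes.

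None of the 4 genes of the myelin sheath was called, and the ages overlapped for each. Pmp22 (ENSMUSG00000018217, chromosome 11 of GRCm38, 63128982 to 63159547, plus strand) encodes a membrane protein of compact myelin whose gene dosage sets the stability of the sheath. It was at 113 and 157 CPM in aged and 152 and 171 CPM in young MFP. Aged replicate 1 was lowest and aged replicate 2 lay between the young libraries, so the ages overlapped. Aged over young MFP, the log2 fold change was -0.26 (SE 0.21, edgeR adjusted p = 0.625).

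Mbp (ENSMUSG00000041607, chromosome 18, 82475146 to 82585637, plus strand) encodes the myelin basic protein, which binds the inner faces of the myelin membrane together. It was at 117 and 93.8 CPM in aged and 112 and 84.2 CPM in young MFP. Replicate 1 was higher than replicate 2 at both ages, and the ages overlapped. Its log2 fold change was 0.10 (SE 0.22, edgeR adjusted p = 0.861), and the sign turned, to -0.0748, when libraries were scaled by their totals alone, and to -0.0802 without aged replicate 1 and -0.0844 without young replicate 2. That scaling moved the median over all genes to -0.22. Mbp varied least of the 8 genes, with 1.39-fold between its highest and lowest library.

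Prx (ENSMUSG00000053198, chromosome 7, 27499324 to 27520214, plus strand) encodes periaxin, a scaffold that Schwann cells use to anchor their outer membrane to the basal lamina. It was at 36.6 and 27.1 CPM in aged and 24.4 and 32.3 CPM in young MFP. Each age had a high and a low library, and the log2 fold change was 0.17 (SE 0.25, edgeR adjusted p = 0.786). It was -0.00301 when libraries were scaled by their totals alone, -0.0730 without aged replicate 1 and -0.0188 without young replicate 1. Prx shares 300 exonic bases with Gm15541 on the other strand, which had 243 counts over all 4 libraries.

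Mag (ENSMUSG00000036634, chromosome 7, 30899176 to 30914873, minus strand) encodes the myelin-associated glycoprotein, an adhesion molecule on the layer of the sheath that faces the axon. It was at 1.82 and 0.943 CPM in aged and 1.34 and 1.52 CPM in young MFP, with both young libraries between the aged ones. These values rest on 84 to 149 counts, where counting error alone is 10.9% at the lowest count. Mag had a log2 fold change of -0.05 (SE 0.45, edgeR adjusted p = 0.968). It was 0.35 without aged replicate 2 and 0.05 without young replicate 2.

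The rest of the sheath was described from a list of 15 further genes, of which 14 passed the filter and 0 were called by edgeR. In aged MFP 9 were higher and 5 lower (median 0.09 on the log2 scale), 4 had both aged libraries above both young libraries (23.3% over all genes tested), and 0 had both below (22.8% over all genes). Young replicate 1 was the lowest library for 10 of the 14 genes, and the median was -0.05 without it, -0.23 without aged replicate 1 and -0.08 with scaling by totals alone. Drp2, a dystrophin-related protein that works with periaxin, was at 28.9 and 23.0 CPM in aged and 14.6 and 22.8 CPM in young MFP. The largest differences were those of Mal, a lipid raft protein of myelin and of epithelia, with 0.78 (SE 0.37, edgeR adjusted p = 0.521), and of Cnp, an enzyme of the non-compacted myelin, with -0.64 (SE 0.57, edgeR adjusted p = 0.649). Cnp was at 58.3 CPM in young replicate 1 against 19.7 to 28.0 CPM in the other libraries, and shares 154 exonic bases with Dnajc7 on the other strand. Prx followed this list more closely than any other of the 13 lists that had genes tested. The distance between its log2 CPM, centred on the mean of the 4 libraries, and the mean of the list was 0.0974 on the log2 scale. The next nearest lists were fibroblast markers at 0.195 and endothelial markers at 0.203. The part of fibroblasts or endothelial cells in the values of Prx was not tested. The other myelin genes were not nearest to the myelin sheath list. Mag was at 0.551 from it and 0.444 from fibroblast markers, Mbp at 0.654 from it and 0.389 from neurotrophin genes, and Pmp22 at 0.756 from it and 0.638 from immature and non-myelinating Schwann cell genes.

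Promoter sequence is shown for the 2 myelin genes on chromosome 7 because SOX10 is known to switch on myelin genes. The letters ACAAAG and ACAATG, which make up the core that SOX proteins recognise, were searched on both strands of the 250 bases before each start site. RefSeq promoter windows on GRCm38.p6 matched 5 of the 8 genes (Prx, Mag, S100b, Pmp22 and Ngfr), with 10 windows in all because Mag and Pmp22 have several starts. Of the 10 windows 2 held a match, both of them at Mag and holding the same site, and 25.2% of 32851 windows of all genes held one. The Mag window shown (chr7:30914923-30915172, minus strand) carries the reverse complement of ACAAAG, in capitals, starting 67 bases before the start site. The Prx window (chr7:27499074-27499323, plus strand) holds neither word. Both are written 5′ to 3′.
Mag: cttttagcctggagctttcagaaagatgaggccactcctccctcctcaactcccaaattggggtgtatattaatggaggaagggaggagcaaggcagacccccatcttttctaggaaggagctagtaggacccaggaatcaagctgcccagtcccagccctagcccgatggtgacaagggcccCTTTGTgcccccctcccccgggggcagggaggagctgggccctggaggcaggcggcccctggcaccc
Prx: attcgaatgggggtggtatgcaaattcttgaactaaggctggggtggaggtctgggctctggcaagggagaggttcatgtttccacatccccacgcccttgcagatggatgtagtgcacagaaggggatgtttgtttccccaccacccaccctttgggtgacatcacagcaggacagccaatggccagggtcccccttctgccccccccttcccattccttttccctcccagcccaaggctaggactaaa

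Such a match is a description of the letters and does not show binding, and its lack in a window of this length says nothing about SOX10 at that gene.

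Sox10 (ENSMUSG00000033006, chromosome 15, 79154908 to 79165240, minus strand) encodes the transcription factor that specifies and maintains Schwann cells. It was at 58.2 and 55.3 CPM in aged and 20.7 and 61.6 CPM in young MFP. Young replicate 1 was about 3-fold below the other libraries, which lay within a narrow band, and the young libraries enclosed the aged ones. The fold change was 0.46 on the log2 scale (SE 0.55, edgeR adjusted p = 0.730). Without young replicate 1 it was -0.12, and without young replicate 2 it was 1.47 (edgeR adjusted p = 0.0617), so its sign rested on young replicate 1.

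Of the 13 lists, the pattern of Sox10 was nearest to that of the 9 mammary epithelial markers, at a distance of 0.116, followed by the immature and non-myelinating Schwann cell genes at 0.865. Krt18, the keratin of luminal cells and the highest of these markers per length, was at 390 and 365 CPM in aged and 220 and 472 CPM in young MFP. As a percentage of the summed CPM of the 9 epithelial markers, Sox10 made up 4.49% and 4.39% in aged and 2.96% and 4.05% in young MFP. Relative to Krt5, a keratin of basal cells, the order was the opposite. This ratio of CPM was 0.777 and 0.641 in aged and 1.71 and 1.21 in young MFP. Relative to Krt18 the ratio was 0.149 and 0.151 in aged and 0.0938 and 0.131 in young MFP. Relative to Elf5, another of the 9 markers, it was 1.19 and 1.06 in aged and 0.972 and 1.05 in young MFP. All 9 markers were detected in every library, and the part of epithelial cells in the values of Sox10 was not tested.

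**Figure D3:**
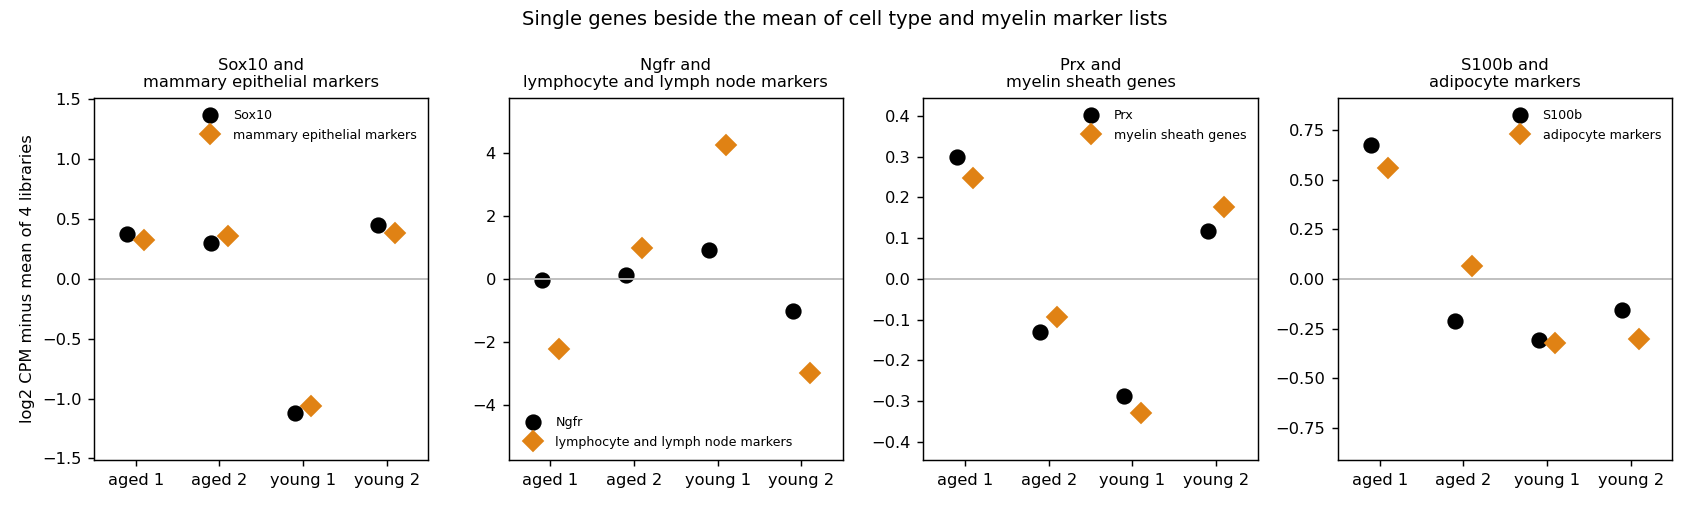
Log2 CPM of a single gene (black circles) and mean log2 CPM of a list of markers (orange diamonds) in each library, both relative to their mean over the 4 libraries, with a vertical axis of its own in each panel. Sox10 and the mammary epithelial markers are both at their lowest in young 1. Ngfr and the lymphocyte and lymph node markers are both at their highest there. By distance this list was the farthest from Ngfr of all lists, at 4.53. Prx lies close to the myelin sheath genes, and S100b and the adipocyte markers are both at their highest in aged 1.

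Cdh19 (ENSMUSG00000047216, chromosome 1, 110888326 to 110977584, minus strand) encodes a cadherin of Schwann cell precursors that stays on in adult Schwann cells. It was at 12.3 CPM in both aged libraries and at 4.61 and 7.70 CPM in the young libraries. The aged libraries differed from each other by 1.01-fold and the young ones by 1.67-fold, and the ages did not overlap. Cdh19 had a log2 fold change of 1.00 (SE 0.32), a 2.00-fold higher level in aged MFP, with an unadjusted p of 0.0343 and an adjusted p of 0.457 from edgeR and an adjusted p of 0.134 from DESeq2. It did not pass the threshold. Leaving out single libraries gave log2 values from 0.67, without young replicate 1, to 1.43, without young replicate 2, and stayed positive each time. The list nearest to Cdh19 was that of the 3 melanocyte markers tested, at a distance of 0.373, followed by the mammary epithelial markers at 0.620. Mlana also had both aged libraries above both young ones, with a log2 fold change of 3.495 (SE 0.87, edgeR adjusted p = 0.408), while Dct and Pmel overlapped between the ages at -0.26 and -0.34. The part of melanocytes or epithelial cells in the values of Cdh19 was not tested.

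S100b (ENSMUSG00000033208, chromosome 10, 76253853 to 76261159, plus strand) encodes a calcium-binding protein used to stain Schwann cells in sections. It was at 3.78 and 2.03 CPM in aged and 1.90 and 2.11 CPM in young MFP, on 156 to 309 counts. Aged replicate 1 was alone above the others, and aged replicate 2 lay between the young libraries. Its fold change was 0.53 on the log2 scale (SE 0.41, edgeR adjusted p = 0.611), and without aged replicate 1 it was 0.01. The list nearest to S100b was that of the 6 adipocyte markers, at a distance of 0.338, all 6 of which were also highest in aged replicate 1. Their summed level was 6573 CPM there and 4135 to 4800 CPM in the other libraries, and their part in the values of S100b was not tested.

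Ngfr (ENSMUSG00000000120, chromosome 11, 95568818 to 95587735, minus strand) encodes the low-affinity neurotrophin receptor, which is high in immature and non-myelinating Schwann cells and low in those with a sheath. It was at 12.6 and 13.9 CPM in aged and 24.4 and 6.33 CPM in young MFP. The young libraries differed 3.86-fold, more than those of any other of the 8 genes, and enclosed the aged libraries, which differed 1.11-fold. For Ngfr it was -0.22 on the log2 scale (SE 0.68, edgeR adjusted p = 0.904). Without young replicate 1 it was 1.06 (edgeR adjusted p = 0.280) and without young replicate 2 it was -0.87, so its direction rested on which young library was used. The order of the libraries for Ngfr was also that of the summed lymphocyte and lymph node markers, which were at 38.4 and 145 CPM in aged and 1250 and 34.8 CPM in young MFP. Those markers spanned a far wider range than Ngfr. The list at the smallest distance was that of the neuron and axon markers, at 0.557, whose summed CPM gave the same order of libraries. The 4 of these markers that were tested did not move together, since 2 were highest in young replicate 1 and 2 in aged replicate 2. The part of lymph node or axons in the values of Ngfr was not tested.

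The ligands and partners of Ngfr were described from a list of 9 neurotrophin genes, all of which passed the filter and 0 of which were called by edgeR. Of these, 7 were higher and 2 lower in aged MFP (median 0.43 on the log2 scale), 5 had both aged libraries above both young libraries (23.3% over all genes tested) and 0 had both below (22.8%). Ntrk2, the receptor of brain-derived neurotrophic factor, was at 295 and 183 CPM in aged and 105 and 77.8 CPM in young MFP. Its log2 fold change was 1.39 (SE 0.31), with an adjusted p of 0.404 from edgeR and of 0.0089 from DESeq2. DESeq2 called 1 of the 9 genes, Ntrk2, beside 3.86% of the genes it tested. Sort1, which sorts neurotrophins and pairs with Ngfr, had the highest level per length of the list and differed by 0.43 on the log2 scale (SE 0.19, edgeR adjusted p = 0.503). Ntrk3, the receptor of neurotrophin-3, was at 66.98 and 104 CPM in aged and 71.9 and 89.7 CPM in young MFP. The part of nerve and of other cell types in the values of these neurotrophin genes was not tested.

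The regulators of Schwann cells made a list of 10 genes, of which 9 passed the filter and 0 were called by edgeR. There were 5 higher and 4 lower in aged MFP (median 0.13 on the log2 scale, -0.28 without young replicate 1, -0.00260 without aged replicate 1 and -0.0543 with scaling by totals alone), and young replicate 1 was the lowest library for 7 of the 9. Both aged libraries were above both young ones for 3 genes and below for 2, beside 23.3% and 22.8% over all genes. Egr2, the transcription factor that drives myelination and a rapidly induced gene in many other cells, was at 5.34 and 4.42 CPM in aged and 21.8 and 42.9 CPM in young MFP. Both aged libraries were below both young ones. Its log2 fold change was -2.73 (SE 0.41), with an adjusted p of 0.360 from edgeR and of 2.2e-07 from DESeq2. DESeq2 called 1 gene of this list, Egr2, beside 3.86% of the genes it tested. Foxd3, a transcription factor of neural crest and of Schwann cell precursors, had 64 and 65 counts in aged and 14 and 26 counts in young MFP, or 1.53 as a log2 fold change (SE 0.50, edgeR adjusted p = 0.458). Erbb3, the receptor through which axonal neuregulin reaches Schwann cells and which epithelia also use, was at 153 and 90.5 CPM in aged and 76.2 and 249 CPM in young MFP, with overlap between the ages. Its partner Erbb2 was at 86.8 and 63.5 CPM in aged and 44.7 and 106 CPM in young MFP. Nab2, a co-factor of Egr2, had a log2 fold change of -0.56 (SE 0.24, edgeR adjusted p = 0.503), and its exons share bases with Stat6 and Nemp1 on the other strand.

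Genes of immature and non-myelinating Schwann cells made a list of 9, all of which passed the filter. Of the 9, 0 were called by edgeR or by DESeq2, beside 0% and 3.86% of the genes each tested. Of these, 6 were higher and 3 lower in aged MFP (median 0.27 on the log2 scale), and the ages were apart with aged higher for 4 and lower for 2, beside the same 23.3% and 22.8%. Scn7a, a sodium channel of non-myelinating Schwann cells, had the highest level per length of the list and was at 250 and 254 CPM in aged and 161 and 228 CPM in young MFP. Its log2 fold change was 0.38 (SE 0.22, edgeR adjusted p = 0.550). The mean of Scn7a was 30.4 CPM per kilobase, and the part of other cell types in its values was not tested. Plekhb1 was at 55.7 and 64.9 CPM in aged and 16.6 and 48.9 CPM in young MFP. L1cam, an adhesion molecule of non-myelinating Schwann cells and axons, was at 11.9 and 10.4 CPM in aged and 12.4 and 6.12 CPM in young MFP. It shares 100 exonic bases with Arhgap4 on the same strand, which had 14303 counts over all 4 libraries. The largest differences were those of Gap43, a growth-associated protein, with 3 and 11 counts in aged and 16 and 22 counts in young MFP, and of Artn, the ligand artemin, with 66 and 45 counts in aged and 15 and 29 counts in young MFP. On these low counts the log2 fold changes were -1.59 (SE 0.70) and 1.19 (SE 0.56), with edgeR adjusted p = 0.506 for Gap43 and 0.520 for Artn.

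**Figure D4:**
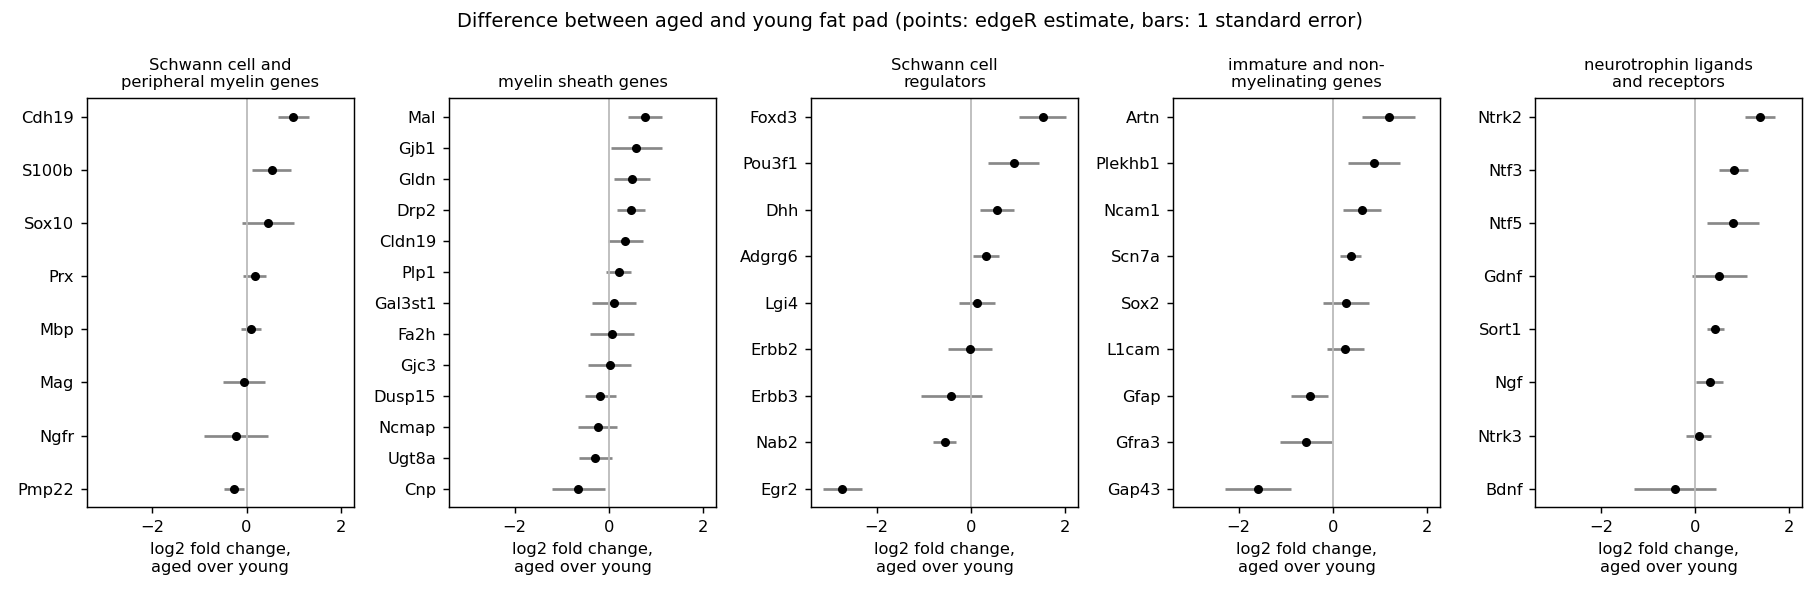
Log2 fold change of aged over young MFP for the 8 Schwann cell and myelin genes and for genes of 4 related lists, as points with bars of 1 standard error from edgeR. Most points lie within about 1 of 0, Cdh19 is the highest of the 8 genes at 1.00, and Egr2 at -2.73 lies farthest from 0 of the genes plotted.

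By the mean of their centred log2 CPM, the 8 genes together were at 0.26 and 0.01 in aged and -0.19 and -0.08 in young MFP. Of 16552 other genes with a mean of at least 1 CPM, the nearest to this pattern were Pard6g (distance 0.0127), Acvr1b (0.0238) and Cenpb (0.0271). Of the lists, endothelial markers were nearest at 0.13, followed by neurotrophin genes at 0.29 and myelin sheath genes at 0.31. Macrophage markers were at 0.63. Cdh5 among the endothelial and C1qa among the macrophage markers had the highest levels per length. Fibroblast markers, of which Col3a1 was the highest per length, were at 0.33, and lymphocyte markers, of which Cd79a was the highest, were farthest at 5.94. The mean hides that the 8 genes did not move together, since Sox10 was lowest and Ngfr highest in the same library.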

How the data were processed

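RNA of whole MFP was sequenced in strand-specific libraries after removal of rRNA. The table the authors deposited gives raw counts for each gene and library, without normalization or pooling. The submitters' processing notes list featureCounts, R 3.6.1 and the builds GRCm38 and hg38. The aligner, annotation release and strand setting are not given in the sources used here, so reads of a gene and of its antisense partner may be mixed.

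Samples were grouped by the age in their titles. Counts were tested in R 4.3.3 with edgeR 4.0.16 (filterByExpr, TMM, glmQLFit, glmQLFTest with age as the only term, Benjamini-Hochberg adjustment over 22485 genes, threshold 0.05). DESeq2 1.42.0, which the study's methods name, was an alternative. The standard error is the log2 fold change over the square root of F. CPM use TMM-scaled totals of the genes kept, and log2 CPM a prior count of 2. Exon lengths, positions and overlaps were taken from GENCODE M21 (GRCm38), where 55141 of 55487 identifiers were found. Where nothing says that replicates came from separate animals, p-values measure only the spread between these samples.

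The 8 genes and the lists were chosen with earlier results of these data known. Named were all 8 genes, in each related list the 3 highest per length and the 2 with the largest fold change, in each cell type list the highest per length, and the 3 nearest genes. Of the genes this rule names, 2 are not reported here; they stay in the counts and medians of their lists. The choice of Opalin, Tyr, Tyrp1, Dct, Pmel, Krt5, Elf5 and of the plotted pairs followed a look at the values. Likeness is the Euclidean distance of centred log2 CPM over the 4 libraries, a description without a test. The code was tested on simulated counts. Alternatives were 3 scalings, 2 filters, DESeq2, the fit without the legacy method, the replicate number as a block and leaving out each sample. Crossing the block was added after seeing the data. Counting errors given cover counting only, since reads without molecular identifiers are not independent molecules.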

Additional observations from a re-analysis of the deposited data

How the results depend on the processing

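Of the results with a test, all 8 genes stayed uncalled by every alternative run. Over all genes, edgeR called 0 under each edgeR alternative, with 837 to 6688 genes at an unadjusted p under 0.05, and DESeq2 called 865. Scaling by total counts alone gave -0.0748 for Mbp and -0.00301 for Prx, with the median of all genes at -0.22 in place of -0.04, moved the genes with no overlap from 1 to 2 and the median of the regulators to -0.0543. The replicate number as a block gave 0.0871 for Ngfr, changed no other sign and called 0 genes. Deviations of samples sharing a number correlated at -0.48, so the numbers were not taken as pairs. A block with the numbers crossed, chosen after seeing the data, called 0 genes and gave 0.0845 for Ngfr.

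With each sample left out in turn, where the lone sample of an age is assumed to vary like the other age, log2 fold changes lay between -0.0844 and 0.32 for Mbp, -0.51 to -0.06 for Pmp22, -0.0730 to 0.40 for Prx, -0.61 to 0.35 for Mag, -0.12 to 1.47 for Sox10, 0.01 to 0.91 for S100b, 0.67 to 1.43 for Cdh19 and -0.87 to 1.06 for Ngfr. The medians ranged from -0.23 to 0.50 for myelin sheath genes, -0.28 to 0.70 for regulators, 0.16 to 0.36 for immature and non-myelinating genes and 0.29 to 0.68 for neurotrophin genes. The causes were not tested. Counting error at the lowest count was 10.9% for Mag and 8.01% for S100b. The aged libraries differed by more, 1.93-fold for Mag and 1.86-fold for S100b. Low counts limit the rarer list genes, and 2 samples per age limit all genes.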
